A study of Mus musculus with 7 samples.

Results

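Promoters of long noncoding RNA (lncRNA) genes were examined in ATAC-Seq of LSK cells, the Lineage-negative Sca-1-positive Kit-positive bone marrow fraction rich in hematopoietic stem and progenitor cells. Peaks of all 7 libraries were merged on the 19 autosomes. A merged region was kept as an lncRNA promoter when it lay within 500 bp of a transcript start site of a GENCODE vM21 lincRNA or antisense gene and more than 2000 bp from every protein-coding start site. This left 2120 of 172143 regions, of which 1553 lay nearest a lincRNA start and 567 nearest an antisense start. They lay at 1842 genes, 22.7% of the 8122 autosomal genes of these types. The study asked whether diabetes of the mother during pregnancy leaves a lasting mark on the blood system of her adult offspring. WTAkita libraries, 4 in number, came from wild-type adult offspring of diabetic Akita dams, which carry an Ins2 mutation. Ctrl libraries, 3 in number, came from wild-type adult offspring of normal pregnancies. All mice were on the C57/BL6 background, and each library was made from 50000 sorted LSK cells. The sources used here do not give the number of mice behind a library. The p-values below therefore measure the spread between libraries only, which may be technical.

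lncRNA genes are transcribed by RNA polymerase II like protein-coding genes, but their transcripts are not translated. Some act in the nucleus as scaffolds or as silencers of neighbouring genes, some are mainly the precursors of microRNAs or small nucleolar RNAs, and for many no role is known. ATAC-Seq marks open DNA through cuts made by a transposase, so a peak at a start site shows that the DNA there was accessible and not that the gene was transcribed. In blood, lncRNAs of this kind include hosts of microRNAs that steer lymphoid and myeloid differentiation.

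Sequences of 8 promoters are printed because the results below turn on them: the strongest members, hosts of known small RNAs, an imprinted silencer and the leading member in each direction. Each is a window of 200 bp around the summit of the region, read from GRCm38 (mm10) on the strand of the lncRNA, 5′ to 3′. Capitals mark matches, on either strand, to the letters CCANNAGNNGGC, the core of CTCF sites, and to short letters of other factors: CCGGAAGT for ETS factors, GAGGAAGT for PU.1, TGTGGTT for RUNX factors, AGATAAG for the GATA family, TGANTCA for AP-1, GGGCGG for the GC box, CCAAT for the box of that name and TATAAA for the TATA box. Overlapping matches of different motifs were both counted. A match describes letters and not a bound factor. The windows lie at chr6:86004300-86004499, plus strand (4930553P18Rik), chr2:94178830-94179029, minus strand (Mir670hg), chr1:9944010-9944209, minus strand (Snhg6), chr7:143296464-143296663, minus strand (Kcnq1ot1), chr16:84703191-84703390, plus strand (Mir155hg), chr14:115042090-115042289, plus strand (Mir17hg), chr13:113423877-113424076, minus strand (Gm41071) and chr8:12502807-12503006, plus strand (4933439N14Rik).
4930553P18Rik promoter: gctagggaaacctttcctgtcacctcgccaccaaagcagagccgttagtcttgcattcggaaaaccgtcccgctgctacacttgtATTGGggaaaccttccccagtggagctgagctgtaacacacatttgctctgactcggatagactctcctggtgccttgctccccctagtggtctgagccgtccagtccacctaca
Mir670hg promoter: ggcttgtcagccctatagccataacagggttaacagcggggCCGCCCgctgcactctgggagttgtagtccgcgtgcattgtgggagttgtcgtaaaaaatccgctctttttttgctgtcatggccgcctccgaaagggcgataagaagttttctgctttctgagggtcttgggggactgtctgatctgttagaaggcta
Snhg6 promoter: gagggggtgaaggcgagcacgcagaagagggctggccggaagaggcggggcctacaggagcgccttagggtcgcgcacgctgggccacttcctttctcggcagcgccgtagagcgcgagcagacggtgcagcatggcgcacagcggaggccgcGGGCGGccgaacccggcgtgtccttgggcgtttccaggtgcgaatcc
Kcnq1ot1 promoter: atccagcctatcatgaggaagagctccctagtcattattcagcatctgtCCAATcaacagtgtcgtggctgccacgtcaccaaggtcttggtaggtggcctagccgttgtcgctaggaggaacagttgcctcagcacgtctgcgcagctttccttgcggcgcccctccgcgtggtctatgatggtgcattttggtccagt
Mir155hg promoter: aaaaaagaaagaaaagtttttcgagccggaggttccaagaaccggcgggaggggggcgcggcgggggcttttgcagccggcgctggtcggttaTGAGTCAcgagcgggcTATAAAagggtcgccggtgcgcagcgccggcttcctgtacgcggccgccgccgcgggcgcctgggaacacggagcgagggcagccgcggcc
Mir17hg promoter: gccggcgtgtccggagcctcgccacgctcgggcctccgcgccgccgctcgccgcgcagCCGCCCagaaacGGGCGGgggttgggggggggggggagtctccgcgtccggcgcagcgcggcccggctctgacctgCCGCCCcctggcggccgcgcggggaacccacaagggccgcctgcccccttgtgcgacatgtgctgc
Gm41071 promoter: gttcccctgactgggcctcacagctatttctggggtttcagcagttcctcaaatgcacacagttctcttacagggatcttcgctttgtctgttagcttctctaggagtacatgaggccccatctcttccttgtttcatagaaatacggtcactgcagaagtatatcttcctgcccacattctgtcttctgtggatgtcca
4933439N14Rik promoter: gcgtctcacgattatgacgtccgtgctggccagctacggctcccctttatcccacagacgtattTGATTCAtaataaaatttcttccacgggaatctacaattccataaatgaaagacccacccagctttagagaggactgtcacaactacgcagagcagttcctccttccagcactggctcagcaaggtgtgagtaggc
The Mir155hg window held an AP-1 match and, downstream of it, a TATAAA match. The whole window lay downstream of an annotated start of Mir155hg at 84703167. Mir17hg held 3 GC boxes and was 80.5% GC, and its window lay upstream of the nearest annotated start, at 115042879. Kcnq1ot1 and 4930553P18Rik each held 1 CCAAT match, Mir670hg and Snhg6 each held 1 GC box, 4933439N14Rik held 1 AP-1 match, and Gm41071 held none of the letters searched.

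Library quality was described before the comparison. The libraries held 134811 to 148072 autosomal peaks in WTAkita and 138390 to 144252 in Ctrl, from an estimated 40500000 to 53100000 tags in WTAkita and 37600000 to 51900000 in Ctrl. The measure used below is the fold enrichment of a peak, the ratio of the tags stacked at its summit to the background around it in that library. Its median over all autosomal peaks was lowest in WTAkita replicate 1 (5.26), WTAkita replicate 2 (5.77) and Ctrl replicate 1 (5.79) and lay between 6.32 and 6.58 in the other 4 libraries. Promoters of the 10 LSK marker genes, among them Kit, Ly6a, Cd34 and Flt3, were called in all 7 libraries. Their summed fold enrichment was 95.8 to 115.0 in WTAkita and 103.0 to 112.0 in Ctrl. Markers of other cell types were partly accessible too: promoters called in all 7 libraries numbered 1 of 5 for T cells (Cd4), 2 of 4 for B cells, 3 of 4 for erythroid cells, 3 of 7 for neutrophils and macrophages and 2 of 3 for NK cells. No peak was called at Cd8a, Cd8b1, Ms4a1, Slc4a1, S100a9 or Ncr1. For each of these lists the summed values of WTAkita and Ctrl overlapped, for instance 15.7 to 20 in WTAkita and 11.9 to 17.6 in Ctrl for T cells.

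Most of the member regions, each of which had a peak in at least 1 library by definition, were called in every library. Of the 2120 members, 1548 (73.0%) were called in all 7 libraries, against 61.4% of all autosomal regions and 85.6% of the 21988 regions within 500 bp of a protein-coding start. A further 168 members (7.92%) were called in a single library, against 12.7% of all regions. The single-library members were spread over the libraries, with 19 to 30 in each WTAkita library and 16 to 28 in each Ctrl library. Among the 95 members missed by exactly 1 library, 25 were missed by WTAkita replicate 1, the library of lowest median fold enrichment, and 5 to 15 by each of the others. The 572 members called in fewer than 7 libraries were weak, with a median fold enrichment of 3.0 over the libraries that called them and a highest mean of 5.86.

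**Figure D1:**
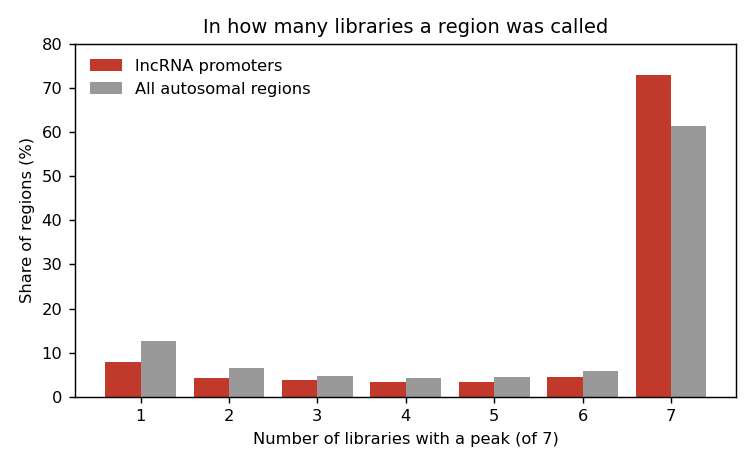
Share of regions (%, vertical axis) by the number of libraries with a peak in them (horizontal axis, 1 to 7), for the 2120 lncRNA promoters (red bars) and all 172143 autosomal regions (grey bars). The bar at 7 libraries holds 73.0% of lncRNA promoters and 61.4% of all regions.

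Among regions called in all 7 libraries, the median of the mean fold enrichment was 9.41 for lncRNA promoters (quartiles 5.48 and 14.4), 12 for protein-coding promoters and 7.79 for regions more than 2000 bp from any start site. By library, the median at lncRNA promoters was 7.82, 8.74, 10.2 and 10.4 in WTAkita replicates 1 to 4 and 8.93, 10 and 9.71 in Ctrl replicates 1 to 3. The WTAkita values lay both below and above those of Ctrl, and the groups overlapped. The group means were 9.29 ± 1.2 in WTAkita (SD, n = 4) and 9.55 ± 0.55 in Ctrl (SD, n = 3). All regions showed the same order of libraries at the low end, with 8.14 ± 1.2 in WTAkita and 8.49 ± 0.74 in Ctrl. The median summit pileup of members lay between 66 and 102 tags in all libraries. The within-group SD of a member on the log2 scale after normalization had a median of 0.154, against 0.175 for all regions and 0.128 for protein-coding promoters. These sets were not alike in depth. The median summit pileup was 51 to 79 tags for all regions and 150 to 223 for protein-coding promoters.

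**Figure D2:**
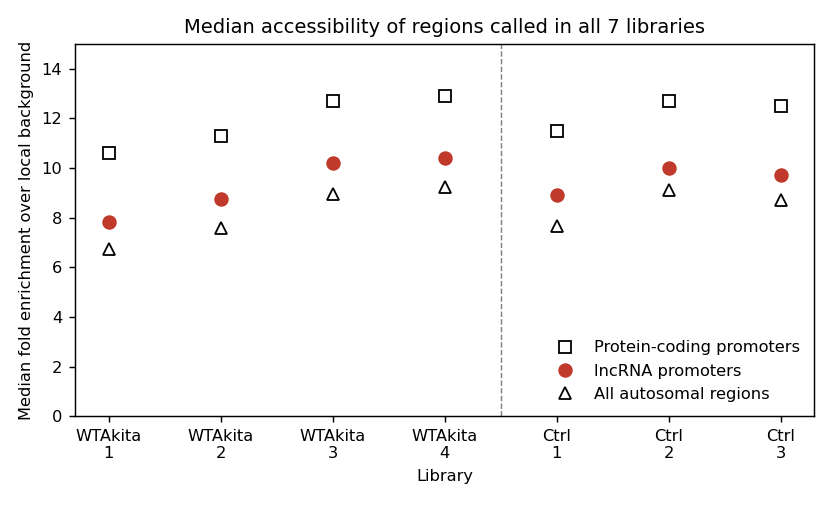
Median fold enrichment over local background (vertical axis, linear, from 0) of regions called in all 7 libraries, for each library (horizontal axis, WTAkita left of Ctrl): protein-coding promoters (squares), lncRNA promoters (red circles) and all autosomal regions (triangles). lncRNA promoters lie between the other sets in every library, from 7.82 in WTAkita replicate 1 to 10.4 in WTAkita replicate 4.

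lncRNA promoters differed among themselves with their type and position, described here with no test. Antisense members called in all 7 libraries (n = 430) had a median fold enrichment of 8.5, and lincRNA members (n = 1118) had 9.76. Of the antisense members, 68.4% lay in the body of a protein-coding gene, against 5.28% of lincRNA members. The region covered the start site itself at 1323 members (62.4%), and of these 80.5% were called in all 7 libraries, with a median fold enrichment of 10.2 among those called. For the 797 members beside a start, 60.6% were called in all 7 libraries, with a median of 7.63 among those called. Among members called in all 7 libraries, the 154 that lay 2000 to 5000 bp from a protein-coding start had a median of 6.69, and those farther away had 9.66 (5000 to 20000 bp), 10.2 (20000 to 50000 bp) and 9.54 (over 50000 bp). Regions were 623 bp wide at the median, and 12 members reached 2000 bp. The widest, at Gm26917 and Gm42418 (4244 bp), holds a ribosomal RNA copy, so its reads cannot be assigned to 1 locus. Its fold enrichment was 2.48 to 2.63 in WTAkita and 2.53 to 2.59 in Ctrl.

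In sequence, lncRNA promoters stood between protein-coding promoters and distal sites. Over windows of 300 bp around the summits of regions called in all 7 libraries, the median GC content was 52.0% at members, 61.7% at protein-coding promoters and 48.7% at regions more than 2000 bp from any start. CpG-rich windows, with GC over 50% and an observed over expected CpG ratio over 0.6, made up 15% of members, 58.5% of protein-coding promoters and 2.12% of distal regions. The 232 CpG-rich members had a median fold enrichment of 10.3 and a median width of 985 bp, and the other 1316 members had 9.23 and 744 bp. Repeats as masked in the RefSeq genome took 12.5% of the bases in members, 7.82% in protein-coding promoters and 17.0% in distal regions. The motif letters followed the same order, CCAAT excepted (27.5% of members, 32.6% of protein-coding promoters and 29.4% of distal regions). A GC box was found in 21.3% of members, 55.8% of protein-coding promoters, 8.96% of distal regions and 18.2% of all regions of this length. The CTCF core was found in 9.04%, 5.46%, 12.4% and 11.2% of the same sets in that order, PU.1 letters in 9.3%, 4.94%, 11.5% and 10%, and RUNX letters in 10.5%, 5.68%, 14.9% and 13.1%. AP-1 letters were found in 12.2% of members and in 10.9% of all regions, CCAAT in 29.9% of all regions, the TATA box in 9.04% of members and 12% of all regions, GATA letters in 3.36% and 3.91%, and ETS letters in 1.36% and 1.43%. Members with the CTCF core (n = 140) had a median fold enrichment of 11.7, and members without it had 9.26.

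The 10 strongest members lay in the top percent of all regions and differed by at most 0.065 (log2) between groups. The strongest was 4930553P18Rik, a lincRNA gene of unknown role, with 29.3, 28.9, 34.8 and 36.0-fold enrichment in WTAkita and 33.6, 36.2 and 33.7 in Ctrl. The difference of WTAkita minus Ctrl after quantile normalization, on the log2 scale, was -0.03 ± 0.06 (SE), and the groups overlapped. Next was an internal start of Mir670hg, the host of miR-670, with 27.6, 30.8, 36.0 and 36.6 in WTAkita and 30.1, 34.8 and 35 in Ctrl. The Ctrl values lay within the wider range of the WTAkita values there. Gm12866 had 23.7, 29.8, 35.7 and 36.9 in WTAkita and 32.2, 34.2 and 32.0 in Ctrl, with WTAkita replicate 1 the lowest of all. The other 7 were AC145554.1, Gm12052, Gm5547, Gm15996, 0610025J13Rik, Gm37494 and Gm5444. Over the 10 members the differences lay between -0.065 (Gm12052) and 0.04 (Gm5444). Members in the top 10% of their libraries numbered 214, or 13.8% of those called in all 7 libraries, against 12.1% of all regions and 21.5% of protein-coding promoters. Among these 214 members, 14.5% held the CTCF core and 22.0% were CpG-rich, against 8.17% and 13.9% of the other members.

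Genes with known roles were taken from 7 lists that hold 78 genes, written from general knowledge. The annotation held 62 of the symbols, 43 of them as lincRNA or antisense genes, and 31 had at least 1 lncRNA promoter region as defined above. The remaining genes of these types had none that met the rule. The 31 genes had 66 member regions, 45 of them called in all 7 libraries, with a median difference of 0.009 (WTAkita minus Ctrl, log2) and a range of -0.24 to 0.44. The median over all 105611 regions tested was 0.006. No listed member passed an adjusted p of 0.05 in limma. At an unadjusted p under 0.05, 2 of the 45 were higher and 0 lower in WTAkita, beside 1.76% and 2.1% of all regions.

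Among nuclear and structural lncRNAs (5 members tested, 0 at unadjusted p under 0.05), accessibility at the start sites was modest. The region over the start of Malat1, a nuclear speckle RNA, had 3.65, 3.87, 3.86 and 3.63-fold enrichment in WTAkita and 3.73, 4.67 and 3.78 in Ctrl. A second region 267 bp upstream of it was stronger, with 7.13, 7.37, 8.25 and 8.50 in WTAkita and 6.92, 8.70 and 7.0 in Ctrl. Values of both groups overlapped in each region. Neat1, the scaffold of paraspeckles, had 3.64, 3.40, 4.02 and 3.94 in WTAkita and 4.04, 3.65 and 3.40 in Ctrl. Miat had 3 regions and Rmst, a neural lncRNA, had 3. Only 1 of these 6, at Miat, was called in all 7 libraries.

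Hosts of small nucleolar RNAs, which carry snoRNAs in their introns, held some of the strongest listed promoters and some weak ones (6 members tested, 0 at unadjusted p under 0.05). Snhg6 had 23.1, 26.1, 28.3 and 27.8 in WTAkita and 25, 27.7 and 29.2 in Ctrl, at a mean percentile of 99.0 among the regions called in each library. Epb41l4aos had 17.8 to 22.5 in WTAkita and 20.1 to 22.1 in Ctrl. Snhg20 had 12.9, 12.9, 14.7 and 15.3 in WTAkita and 14.3, 15.3 and 14.4 in Ctrl. The groups overlapped at each of these, and the differences were 0.01, 0.01 and 0.00 (log2). At Snhg12, the region over the gene start had 11.6 to 13.2 in WTAkita and 11.5 to 12.3 in Ctrl. Its other tested regions, at an internal start, were weak, with means over all libraries of 4.1 and 3.89.

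MicroRNA hosts gave 19 members called in all 7 libraries, with 1 at an unadjusted p under 0.05. Mir155hg, the host of miR-155, which acts in inflammatory activation of myeloid and lymphoid cells, had 12.8, 13.5, 13.9 and 13.4 in WTAkita and 13.4, 15.4 and 13.9 in Ctrl. Mir17hg, the host of the proliferative miR-17 cluster, had 8.89, 10.1, 11.0 and 11.3 in WTAkita and 10.4, 11.4 and 11.5 in Ctrl. Values of the groups overlapped at both, with differences of -0.01 and -0.035. Mir142hg, the host of the blood-specific miR-142, had 8.23, 8.85, 8.04 and 7.51 in WTAkita and 7.30, 7.87 and 8.19 in Ctrl, a difference of 0.135. Hosts of neural microRNAs were also open: Mir9-3hg had 5.19 to 5.69 in WTAkita and 5.37 to 5.68 in Ctrl at its gene start, and the strongest region of Mir124a-1hg had 6.76, 5.18, 6.92 and 6.95 in WTAkita and 8.73, 7.79 and 7.30 in Ctrl. At Mir124a-1hg every WTAkita value was below every Ctrl value as deposited. After normalization the groups overlapped, at 2.493 to 3.043 in WTAkita and 2.795 to 3.227 in Ctrl, with a difference of -0.24 (limma, unadjusted p = 0.176). The unadjusted p there was 0.0442 with the highest −log10 p as the value, 0.0478 with the enrichment of the library as a covariate and 0.0498 without WTAkita replicate 1. In all other alternatives that gave a value it was 0.05 or more. An internal start of Mir670hg, far from its strong one, had 3.45, 3.18, 4.39 and 4.95 in WTAkita and 3.14, 2.80 and 3.13 in Ctrl. All WTAkita values lay above all Ctrl values there, and the difference was 0.40 ± 0.16 (SE; limma, unadjusted p = 0.0287, adjusted p = 1.00). In 6 alternatives the unadjusted p was 0.0531 to 0.159, among them those without WTAkita replicate 3 or 4 or without Ctrl replicate 2 or 3. The other 2 tested regions of Mir670hg had differences of 0.035 and -0.05.

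Imprinted lncRNAs (4 members tested, 0 at unadjusted p under 0.05) covered a wide range of levels. Kcnq1ot1, an antisense silencer of the Kcnq1 domain, was the strongest, with 18.1, 19.3, 20.8 and 21.9 in WTAkita and 20.4, 21.4 and 20.8 in Ctrl. Airn, the antisense silencer of the Igf2r domain, had 6.17, 7.75, 8.66 and 7.91 in WTAkita and 8.52, 7.76 and 8.45 in Ctrl. H19, the partner of Igf2, had 3.35, 3.57, 3.24 and 4.30 in WTAkita and 4.21, 3.34 and 3.01 in Ctrl. The groups overlapped at all of them, with differences of 0.01, -0.06 and 0.06. Meg3, of the Dlk1 domain, varied most: a region near an internal start had 7.08, 6.67, 13.2 and 11.6 in WTAkita and 10.5, 11.3 and 8.22 in Ctrl. The gene start of Meg3 was called in 3 libraries only, WTAkita replicates 1 and 2 and Ctrl replicate 1, at 2.62, 3.42 and 2.07. Those are the libraries with the weakest enrichment.

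Of lncRNAs tied to the cell cycle, p53 and Myc, 9 members were tested and 0 passed an unadjusted p of 0.05. Lockd, just downstream of Cdkn1b, had 11.3, 10.6, 11.0 and 11.9 in WTAkita and 9.94, 10.9 and 10.8 in Ctrl, a difference of 0.16 with overlapping groups. The start region of Pvt1, the neighbour of Myc, had 7.01, 7.54, 10.2 and 10.1 in WTAkita and 9.36, 10.8 and 8.82 in Ctrl. Trp53cor1, a p53 target beside Cdkn1a, had 5.86, 5.50, 5.17 and 6.38 in WTAkita and 6.70, 6.10 and 5.51 in Ctrl. Lncpint, another p53 target, had 6 regions, the most of any gene together with C130071C03Rik, and 5 of them were called in all 7 libraries with differences of -0.11 to 0.12.

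Blood and immune lncRNAs gave 15 tested members, 10 of them with a difference above 0, beside 52.1% of all regions, and a median of 0.075. At an unadjusted p under 0.05, 1 was higher, beside 1.76% of all regions, and 0 were lower. Several of these genes also stand in the lists above, and some gave more than 1 of the tested members. In the other lists, differences were above 0 at 6 of 6 tested members of snoRNA hosts and 7 of 19 of microRNA hosts. The counts were 4 of 9 for the cell cycle, p53 and Myc, 2 of 5 for nuclear and structural, 2 of 4 for imprinted and 1 of 2 for Hox cluster lncRNAs. Of the snoRNA host members, 3 were regions of Snhg12, with differences of 0.145, 0.236 and 0.032. The rest had 0.009 (Snhg6), 0.007 (Epb41l4aos) and 0.002 (Snhg20). Ptgs2os2, known as lincRNA-Cox2 and a regulator of inflammatory genes in macrophages, was highly accessible, with 24.5, 24.6, 25.6 and 26.7 in WTAkita and 25, 25.1 and 25.3 in Ctrl. The difference was 0.075 and the groups overlapped. Gm14005, known as Morrbid and a regulator of the lifespan of short-lived myeloid cells, had 10, 10.7, 11.7 and 12.1 in WTAkita and 9.62, 11.4 and 12 in Ctrl at its strongest region. Mirt1, a lncRNA named from infarcted heart, had 4 regions. Its gene start had 9.83, 10.6, 11.4 and 11.4 in WTAkita and 9.71, 11.8 and 10.9 in Ctrl. A weaker region at an internal start of Mirt1 had 2.96, 4.66, 4.17 and 5.28 in WTAkita and 3.08, 3.21 and 3.10 in Ctrl. WTAkita replicate 1 was below all Ctrl libraries as deposited, and after normalization all WTAkita values lay above all Ctrl values. The difference was 0.44 ± 0.17 (SE; limma, unadjusted p = 0.0227, adjusted p = 1.00). In 6 alternatives the unadjusted p was 0.0541 to 0.109, among them those without WTAkita replicate 2 or 4 or without Ctrl replicate 2 or 3.

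lncRNAs of the Hox clusters gave 2 tested members. Hoxd3os1 had 13.1, 17.4, 19.1 and 21.2 in WTAkita and 18.6, 22.1 and 21.6 in Ctrl, a difference of -0.175 (limma, unadjusted p = 0.0559). The groups overlapped as deposited, and after normalization all WTAkita values (3.98 to 4.27, log2) lay below all Ctrl values (4.30 to 4.35). The unadjusted p was under 0.05 in 3 alternatives, at 0.00573 with the highest −log10 p in place of fold enrichment, 0.0212 with the replicate block and 0.0332 without WTAkita replicate 4. Hoxb5os had 2.92 to 3.53 in WTAkita and 2.82 to 3.45 in Ctrl. Hottip, at the end of the HoxA cluster, was called in Ctrl replicate 3 only, at 2.02, and the 2 regions of Hoxb3os were called in 2 libraries and in 1.

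**Figure D3:**
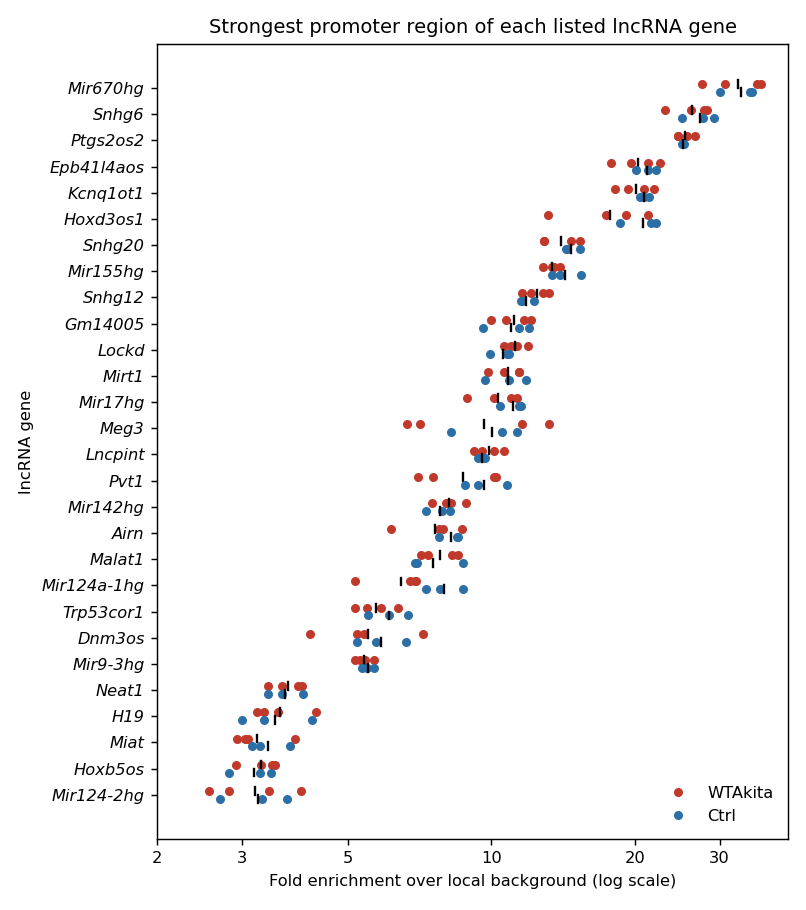
Fold enrichment over local background (horizontal axis, log scale) at the strongest region called in all 7 libraries of each listed lncRNA gene (vertical axis, ordered by mean); each point is a library, WTAkita (red) above Ctrl (blue), and black ticks mark group means. Means over the 7 libraries run from 3.23 at Mir124-2hg to 33.0 at Mir670hg, and the groups overlap at each of the 28 genes except Mir124a-1hg.

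No lncRNA promoter differed between WTAkita and Ctrl after adjustment. In limma, 0 of 1548 members and 0 of 105611 regions (0%) had an adjusted p under 0.05, and the smallest adjusted p was 1.00. At an unadjusted p under 0.05, 30 members (1.94%) were higher in WTAkita, beside 1.76% of all regions, and 27 (1.74%) were lower, beside 2.1% of all regions. Values of all 4 WTAkita libraries lay above all 3 Ctrl libraries at 44 members (2.84%), beside 2.46% of all regions, and below them at 36 (2.33%), beside 2.26%. These shares were near those of all regions. The median difference was 0.009 over members and 0.006 over all regions, and the 5th and 95th percentiles were -0.24 and 0.24 over members and -0.26 and 0.25 over all regions. Quantile normalization gave the tested regions the same distribution in each library, so a shift shared by all regions could not show in these values. Leaving out Ctrl replicate 3 gave 16 members lower at an unadjusted p under 0.05, in place of 27. When the summit pileup scaled by the estimated number of tags replaced the normalized fold enrichment, 1 member was higher and 7 were lower, and the median moved to -0.127 over members and -0.119 over all regions. The scaled pileup was not quantile-normalized. Shares of all regions at an unadjusted p under 0.05 were not counted under these alternatives, so these member counts have no background beside them.

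The study asked for a difference of more than 0.58 on the log2 scale in read counts, and here that limit was set on normalized fold enrichment, an unlike measure. A difference above it, together with an unadjusted p under 0.05, was found at 0 members higher in WTAkita, beside 0.112% of all regions. It was found at 1 member lower in WTAkita, beside 0.134% of all regions. That member, named after its values were seen, lay at Slain1os, antisense in the Slain1 gene, with 3.23, 2.85, 2.36 and 4.79 in WTAkita and 5.79, 6.0 and 3.49 in Ctrl. The groups overlapped, since WTAkita replicate 4 was above Ctrl replicate 3. The difference was -0.59 ± 0.24 (SE; limma, unadjusted p = 0.0256, adjusted p = 1.00).

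**Figure D4:**
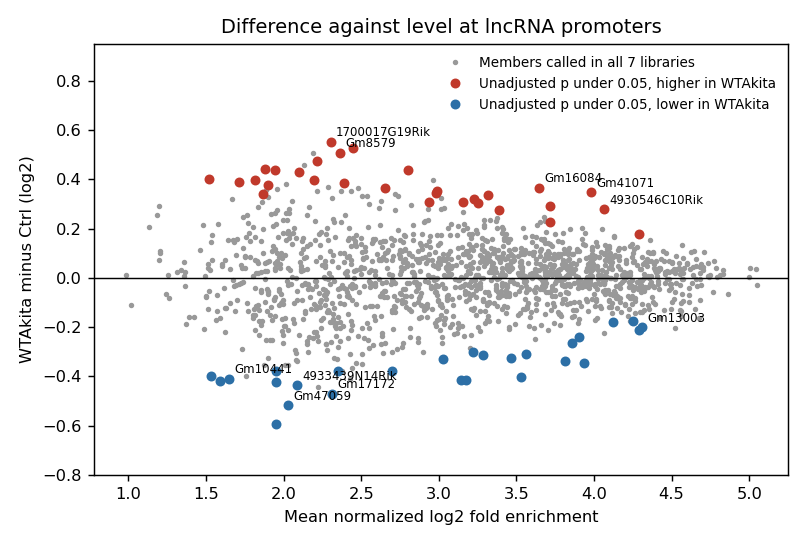
Difference of WTAkita minus Ctrl (log2, vertical axis) against the mean normalized log2 fold enrichment (horizontal axis) of the 1548 lncRNA promoters called in all 7 libraries (grey). The 30 members higher (red) and 27 lower (blue) at an unadjusted p under 0.05 are marked, and the 10 leading members are named.

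The leading members were those with the largest moderated statistic among promoters whose normalized values did not overlap between groups, so the lack of overlap is how they were chosen and no further support. Among those higher in WTAkita, the largest statistic, though not the largest difference, was at Gm41071, a lincRNA gene of unknown role, at chr13:113423592-113424418. It had 13.5, 16.9, 17.2 and 22.0-fold enrichment in WTAkita and 12.8, 14.9 and 14.9 in Ctrl. After normalization, log2 values were 3.99 to 4.32 in WTAkita and 3.77 to 3.82 in Ctrl. The difference was 0.35 ± 0.10 (SE; limma, unadjusted p = 0.00264). 1700017G19Rik, 7472 bp from the start of the coding gene Intu, had 4.93, 4.89, 6.44 and 6.82 in WTAkita and 4.04, 4.77 and 3.39 in Ctrl. All WTAkita values were above all Ctrl values as deposited too, and the difference was 0.55 ± 0.16 (SE; limma, unadjusted p = 0.0043). Gm8579, with 5.04 to 6.75 in WTAkita and 3.31 to 4.98 in Ctrl, also did not overlap as deposited, with a difference of 0.51. 4930546C10Rik and Gm16084 had differences of 0.28 and 0.37, and as deposited their groups overlapped.

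The leading members lower in WTAkita began with 4933439N14Rik at chr8:12501857-12503181, with 3.43, 3.42, 3.77 and 4.14 in WTAkita and 4.76, 5.03 and 5.73 in Ctrl. All WTAkita values were below all Ctrl values, and the difference was -0.435 ± 0.15 (SE; limma, unadjusted p = 0.0129). Gm17172, antisense within Fam71f1, had 4.03, 4.56, 3.77 and 4.57 in WTAkita and 6.62, 6.0 and 5.73 in Ctrl, again with no overlap as deposited, and a difference of -0.47. Gm13003, a strong promoter 112235 bp from the start of Wnt4, had 16.1, 17.7, 19.8 and 19.8 in WTAkita and 19.6, 23.1 and 23.6 in Ctrl, with overlap as deposited. Its difference was the smallest of the 5, at -0.20, with SDs after normalization of 0.05 in WTAkita and 0.06 in Ctrl. Gm47059 and Gm10441, the second antisense in Rbpj, had differences of -0.52 and -0.41. For all 10 leading members the adjusted p was 1.00 in limma. Under each alternative that gave a value the 10 kept their direction, while an unadjusted p under 0.05 was lost in 1 to 7 of the 17 or 18 alternatives for each. With the summit pileup scaled by tags, it was lost at 8 of the 10 and kept at Gm17172 and Gm47059.

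**Figure D5:**
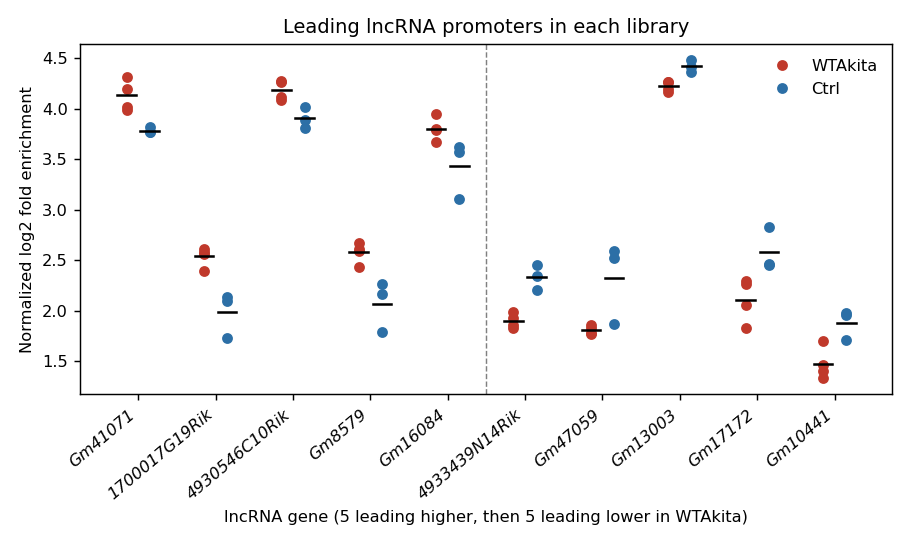
Normalized log2 fold enrichment (vertical axis) of the 10 leading lncRNA promoters in each library (points; WTAkita red, left of Ctrl blue; black lines are group means). The 5 genes left of the dashed line are higher and the 5 right of it lower in WTAkita, with differences of -0.52 to 0.55 and an adjusted p of 1.00 for each.

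Presence or absence of a peak separated the groups at few members. Gm10390, antisense, was the 1 member (0.0472%) called in all 4 WTAkita libraries, at 2.02, 3.23, 3.77 and 2.61, and in no Ctrl library, beside 0.0929% of all regions. Gm14199, at 3.52, 4.45 and 2.99, and Gm35135, at 2.48, 4.06 and 2.99, were the 2 members (0.0943%) called in all 3 Ctrl libraries and in no WTAkita library, beside 0.111% of all regions. All 3 were weak, with mean percentiles of 11.9 to 21.3 in the libraries that called them. Leaving out WTAkita replicates 1 and 2 and Ctrl replicate 1, which had the weakest enrichment, 20 members (0.943%) were called in both remaining WTAkita libraries and neither remaining Ctrl library, beside 1.6% of all regions. The reverse held for 15 members (0.708%), beside 0.887% of all regions.

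By kind, the shares of members at an unadjusted p under 0.05 were uneven, and they are given as a description with no test, beside the 1.76% higher and 2.1% lower of all regions. CpG-rich members had 2 higher and 0 lower of 232 (0.862% and 0%), beside 0.727% and 0.432% of the 13885 CpG-rich regions of the whole set. Members that were not CpG-rich had 28 higher and 27 lower of 1316 (2.13% and 2.05%), beside 1.92% and 2.35% of such regions. Antisense members had 9 higher and 10 lower of 430 (2.09% and 2.33%), and lincRNA members had 21 higher and 17 lower of 1118 (1.88% and 1.52%). Members with PU.1 letters had 9 higher and 6 lower of 144 (6.25% and 4.17%), beside 1.64% and 2.32% of the 10588 regions with these letters. Members with RUNX letters had 7 higher and 6 lower of 162 (4.32% and 3.7%), beside 2.38% and 1.94% of 13786 regions, and members with the CTCF core had 3 and 2 of 140 (2.14% and 1.43%), beside 0.953% and 3.25% of 11857 regions. Median differences of the PU.1, RUNX and CTCF members were 0.018, 0.006 and -0.04. Of the other motifs searched, AP-1 members (n = 189) had 2.12% and 1.59%, beside 2.37% and 2.02% of such regions. CCAAT members (n = 426) had 2.11% and 1.41%, beside 1.76% and 2.3%. TATA box members (n = 140) had 2.14% and 2.14%, beside 1.94% and 2.41%. GC box members (n = 330) had 1.52% and 0.909%, beside 1.21% and 0.979%. GATA members (n = 52) had 0% and 1.92%, beside 1.96% and 1.89%, and ETS members (n = 21) had 9.52% and 4.76%, beside 1.59% and 1.26%. Neighbours of the limits of the definition are given with no test. Just inside 500 bp of a start lay AC163629.2 (500 bp, mean fold enrichment 4.22 in 2 libraries) and Gm15849 (499 bp, 14.5 in 7), and just outside lay Gm37020 and AC091309.3 (both 501 bp, 3.98 in 1 library and 2.1 in 4). Just over 2000 bp from a protein-coding start lay BC028777 (2005 bp, 8.15) and BC051537 (2025 bp, 3.0), and just under it lay B230323A14Rik (1994 bp, 2.82) and Gm26563 (1982 bp, 3.64).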

How the data were processed

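ATAC-Seq was analysed from the peak lists of 4 WTAkita and 3 Ctrl libraries. By the study's methods and the submitters' processing notes, the authors ran Trim Galore 0.4.2 and cutadapt 1.9.1, mapped with Bowtie2 2.3.4.1 (mm10), dropped duplicate reads, and used MACS2 (2.1.4 by the notes) separately on every library, extending cut sites to 150 bp, with no control. Fold enrichment, as deposited, is a ratio of summit pileup to local background, unscaled across libraries. The −log10 p-values and q-values deposited beside it rise with depth and served in alternatives. The deposited score, a multiple of the −log10 p, was left out. No read counts were used, so the study's count test was not run.

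Peaks were merged over libraries, and a region took its highest fold enrichment per library. Start sites came from GENCODE vM21, which holds no gene of type lncRNA, so lincRNA and antisense genes were used. log2 values of regions called in all 7 libraries were quantile-normalized and fitted in limma 3.58.1 (trend, R 4.3.3), and p-values were Benjamini-Hochberg adjusted over 105611 regions, with no replicate block. Members called in fewer libraries were described only. Each library counted once: between any pair, summit pileups differed by a mean chi-square of 1.07 to 1.8, over the 1 of sampling noise, and correlations were 0.922 to 0.956. The precision of a value is limited by its summit pileup, with a member median of 66 to 102 tags. The fit was tested on simulated data with equal normal noise in all regions and changes larger than any member difference (-0.59 to 0.55). That test therefore does not show whether changes of the size seen here would be found. Python 3.11.15, numpy 2.4.6, pandas 2.3.3 and matplotlib 3.10.9 were used.

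Named regions were members at genes of 7 role lists, the 10 strongest, the 5 leading per direction among those without overlap, the 5 leading called in 1 group only, any at adjusted p under 0.05, and 2 on each side of both distance limits. Symbols not in the annotation were left out. Members and lists were chosen with earlier results of these data known. Alternatives covered normalization, the value of a peak, the test, peak thresholds, regions, start site windows and libraries. Added after the data were examined were all long noncoding gene types, leaving out the 3 libraries of weakest enrichment, and the other definitions for the tested counts.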

Additional observations from a re-analysis of the deposited data

Results flagged for a closer look

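Normalized log2 fold enrichment was searched for a library far from the others of WTAkita, at 64 named regions and in 3 library totals, 67 groups of 4 libraries in all. Chance alone sets 1 library apart in about 1 in 20 such groups, and 2 were found. At 4930553P18Rik, the strongest member, WTAkita replicate 2 stood low at 4.95, against 5.07, 5.06 and 5.07 in WTAkita replicates 1, 3 and 4. At a region of Lncpint near an internal start, WTAkita replicate 2 stood low at 1.69, against 1.85, 1.85 and 1.83 in replicates 1, 3 and 4.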

How the results depend on the processing

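The count of members at an adjusted p under 0.05 was 0 under every alternative run. Of 141 summary values under alternatives, 115 stayed within their limits. With summit pileup scaled by tags, members at an unadjusted p under 0.05 were 1 higher and 7 lower in WTAkita and the median difference was -0.127, where all regions moved to -0.119. With each library left out, the counts were 23 to 38 higher and 16 to 34 lower and the median -0.004 to 0.03. With the replicate block (replicates 1 to 3, WTAkita replicate 4 left out), 35 were higher, 42 lower and the median was 0.025. Without the block these 6 libraries gave 29 higher and 34 lower. Shares of all regions at an unadjusted p under 0.05 were not counted under the alternatives. A change in these counts therefore cannot be told from a change over all regions. The labels give the numbers no meaning beyond a name, and deviations of same-numbered libraries correlated at 0.209, 0.0256 and 0.0634, so the pairing rests on a number only.

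Members called in WTAkita only numbered 0 with peaks at q under 0.05, 2 by the study's consensus, 2 where a call needed 50% of the region, and 1 to 7 with a library left out. Members called in Ctrl only numbered 0 with peaks at p under 1e-05, 4 with peaks at q under 0.05, 5 with a window of 1000 bp, 1 at 5000 bp from protein-coding starts, and 3 to 8 with a library left out. Without the 3 libraries of weakest enrichment they numbered 20 and 15. Fewer libraries make such a pattern easier to meet. Shares of all regions with these patterns were counted only for the main calls and without those 3 libraries. Member regions numbered 1642 to 2960 over the windows, against 2120. No direction of a leading member reversed. Of 1147 values of named regions under alternatives, 54 were counted as moved by more than the spread between libraries. The leading members were not checked for such moves, so the count leaves out any at them. Over the alternatives, the difference at 1700017G19Rik ran from 0.41 to 0.91, against 0.55 in the main fit. At Gm8579 it ran from 0.31 to 0.88, against 0.51. Depth is estimated, and the fold enrichments come with no estimate of their counting error.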
